A study of Homo sapiens with 6 samples.

Results

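Genes of cytokine, chemokine and NF-kB signalling were examined in HT-29 cells with and without OGT depletion. A protein-coding gene was included when its symbol started as those of the chemokines and their receptors (CXCL, CXCR, CCL, CCR), the interleukins and their receptors (IL), the TNF family (TNF), the NF-kB subunits, inhibitors and kinases (NFKB, REL, IKBK), the signal transducers (IRAK, TRAF, RIPK), the innate sensors (TLR, NLRP), the colony-stimulating factors (CSF), LIF and its receptor, or the SOCS inhibitors. The rule itself reads only the symbol and the gene type, not a measured value. The rule found 54 genes among the 5681 genes of the deposited table, of which 4129 were protein coding. In GENCODE version 29, 261 protein-coding genes match the same rule, so that 20.7% of them were in the table, beside 20.7% of all 19969 protein-coding genes.

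The study addressed how OGT, the only enzyme that attaches O-linked N-acetylglucosamine (O-GlcNAc) to nuclear and cytoplasmic proteins, controls the tricarboxylic acid cycle of colorectal cancer cells, and RNA was sequenced to look for genes through which its depletion acts on that cycle. The RNA came from HT-29, an established human colorectal cancer cell line, expressing a Scramble hairpin (n = 3 libraries, numbered 1 to 3, genotype given as WT) or a hairpin against OGT (shOGT, n = 3 libraries, numbered 4 to 6, genotype given as OGT knock down). The sources do not name which OGT hairpin was used for sequencing, and no label says that libraries of a group came from separate cultures, so that p-values measure the spread between these libraries, which may be technical. All 6 libraries carry the same tissue and treatment labels, no batch is named, and no untransduced cells were sequenced.

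NF-kB is a family of dimeric transcription factors that wait in the cytoplasm bound to inhibitors. Toll-like receptors, interleukin-1 family receptors and TNF receptors signal through IRAK, TRAF and RIPK proteins to the IkB kinases, which release the canonical dimers, whereas a second, slower branch processes the NFKB2 precursor and frees dimers that contain RELB. Epithelial cells of the colon use this pathway to turn microbial contact or injury into secreted chemokines and interleukins. OGT is known to modify several proteins of the pathway.

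The table gives reads per gene after division by a size factor of each library, called normalized counts here, with no correction for gene length. OGT itself had 9628, 11638 and 11619.5 normalized counts in Scramble and 484, 621 and 537 in shOGT, so that 4.99% of the Scramble level was left, and the groups did not overlap. The table holds only genes changed over 2-fold with an adjusted p under 0.05 in the test of its authors, and genes outside these limits were not analysed here. Of the 5671 genes tested with limma on log2(normalized count + 1), 99.4% were called (a change over 2-fold and a Benjamini-Hochberg adjusted p under 0.05), 52.2% higher and 47.2% lower in shOGT, and the 2 groups did not overlap for 99.5%. A call is therefore no result about the genes described here, and their values and directions are given instead. The same holds for the adjusted p-values printed below, which cover genes already selected by a test of these libraries. A second scaling divided each library by the median ratio of its genes to their geometric means within the table. Only genes above 0 in all 6 libraries entered it. It moved the median change over all genes up by 0.71 on the log2 scale, and then 2980 genes were called higher and 1090 lower in place of 2959 and 2677. Such a scaling assumes that most genes are unchanged, which a table of changed genes does not meet. It is given to show how the values move with the scaling, and does not correct them. Of 16 colon epithelium markers, 6 were in the table and none was at 0, with summed levels of 9356 to 11267 normalized counts in Scramble and 18703 to 20664.9 in shOGT. Of the 6, KRT19, KRT20 and CEACAM6 were higher, with log2 fold changes of 1.39, 2.69 and 2.04, and LGALS4, CDHR5 and VIL1 were lower, with −1.97, −1.85 and −1.12, so that the sum follows the abundant keratin genes. Of 20 white blood cell markers, 6 were in the table, with sums of 7998 to 8719 in Scramble and 15821 to 17575 in shOGT, nearly all from LYZ, which gut epithelium also makes. Of the 6, LYZ, CD14, CSF1R, CD79A and ITGAX were higher, with log2 fold changes of 1.01, 1.42, 1.70, 1.92 and 3.16. ITGAM was lower, with −2.11. The leukocyte marker PTPRC and the T cell markers were not in the table, so that their levels are unknown. Of 11 fibroblast and endothelial markers, 2 were in the table, with sums of 42.3 to 51.4 in Scramble and 142 to 211 in shOGT. Their part in the results was not tested, and in bulk RNA a smaller share of expressing cells and less RNA per cell cannot be told apart.

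All 54 genes passed the filter on low values, all 54 were called, and in all 54 the groups did not overlap, which the make-up of the table fixes. In shOGT 28 were higher and 26 were lower, or 51.9% higher beside 52.5% of all genes tested and 42.6% of the protein-coding ones. The median log2 fold change was 1.05 for the 54 genes, 1.05 for all genes and −1.11 for the protein-coding genes of the table. Since the table holds almost no value between −1 and 1, a median jumps across that gap when the split passes an even share. The split by role was less even. All 6 NF-kB subunit, inhibitor and kinase genes were lower, and all 4 SOCS genes were higher. Of 13 genes of secreted signals (chemokines, interleukins with IL36RN, TNF ligands and CSF2), 11 were higher. This grouping crosses the roles, was made with the values known and leaves out the enzyme gene IL4I1, which was lower. It includes CXCL6 and IL4, with 15 and 12 reads over the shOGT group and 0 in Scramble. The chemokine gene CX3CL1 and the TNF ligand gene LTB, outside the name rule, were lower. Receptors for chemokines, interleukins and TNF ligands were split, with 7 higher and 12 lower. No direction turned under the second scaling (called rescaling below), but the median log2 fold change of the 54 genes moved to 1.75, and 8 of the 26 lower genes were then no longer past a 2-fold change (TNFAIP2, NFKB1, IL22RA1, IKBKE, IKBKB, TNFRSF14, IL17RD and TLR3). Unless stated, log2 fold changes are on the deposited scaling.

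**Figure D1:**
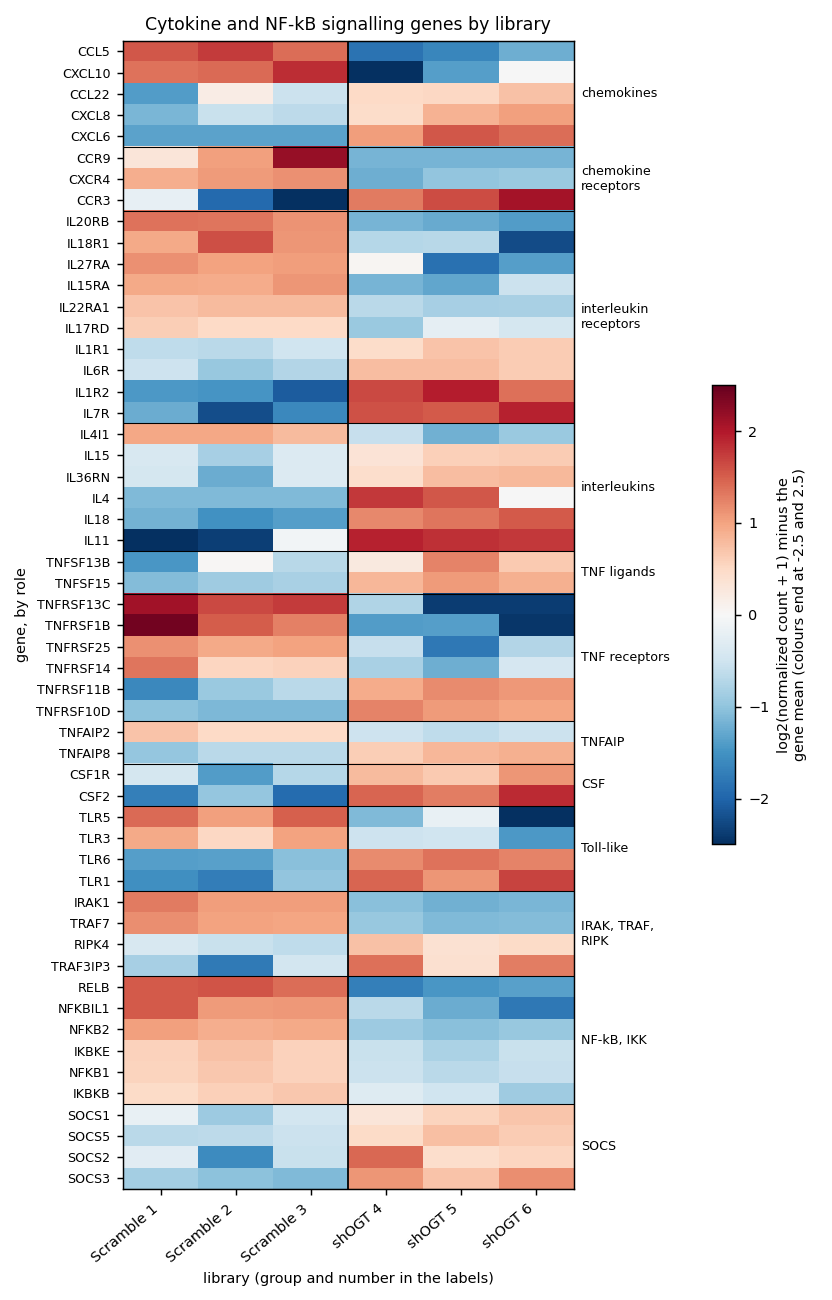
Each row is 1 of the 54 genes, ordered by role, and each column is a library, with the colour giving log2(normalized count + 1) minus the mean of the gene over the 6 libraries. For every gene the 3 libraries of one group all lie above the 3 of the other, and the NF-kB rows are low in shOGT while the SOCS rows are high.

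**Figure D2:**
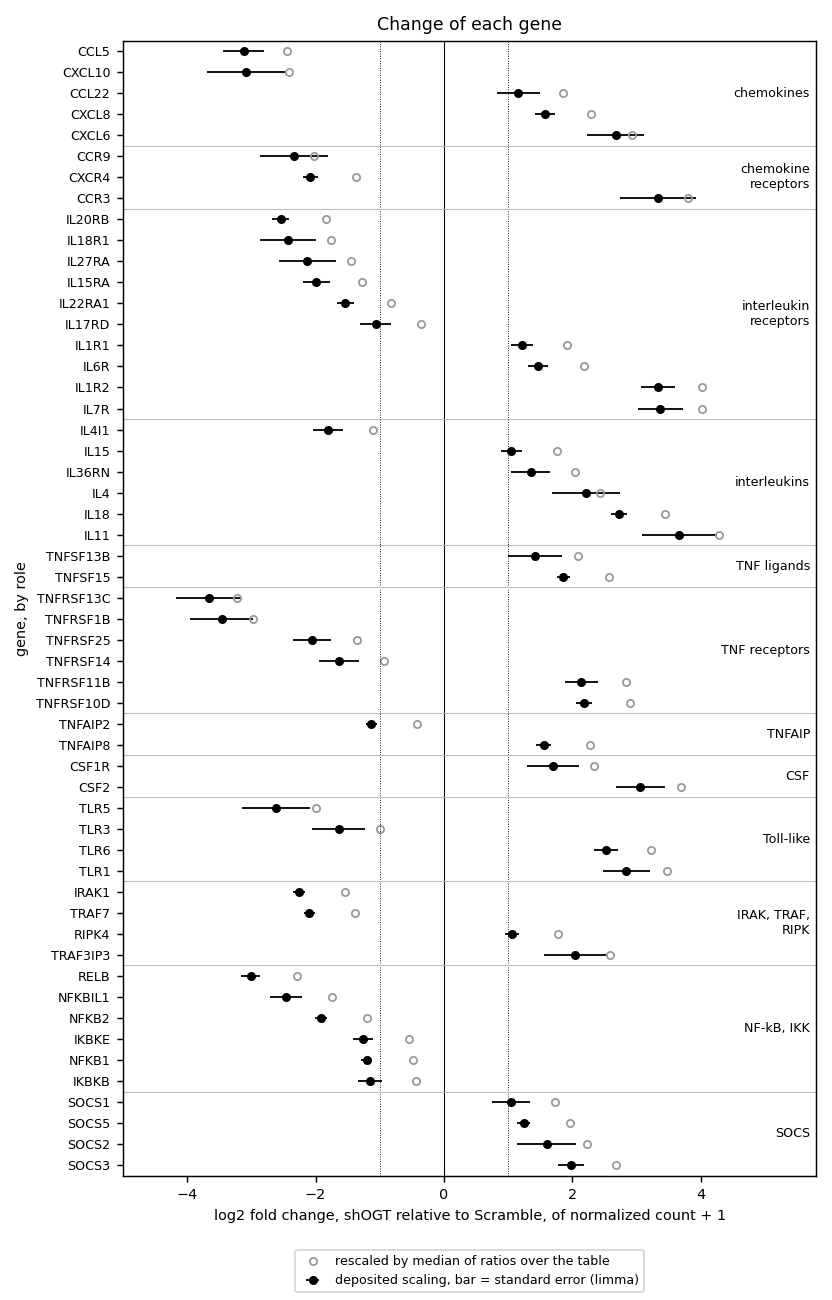
Filled points give the log2 fold change of shOGT relative to Scramble from limma with its standard error, and open points give the same after the second scaling. The dotted lines mark a 2-fold change, and 8 of the lower genes cross to within it after rescaling.

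Promoter sequences of 250 bases before to 50 bases after each start were taken from RefSeq (GRCh38.p14), which held 67 of them for 42 of the 54 genes. They were searched on both strands for the kB consensus, for the AP-1 site TGACTCA, for the STAT site TTCNNNGAA and for the ISRE core, a pair of GAAA runs with 2 bases between them. The kB consensus occurred in 25.4% of these promoters and in 11.3% of all 35116 promoters, the AP-1 site in 13.4% and 4.95%, the STAT site in 8.96% and 7.66%, and the ISRE core in 11.9% and 3.57%. Per gene, 10 of the 22 lower genes and 6 of the 20 higher genes with a promoter held a kB match, whereas the AP-1 site was found for 2 lower genes and 5 higher genes, the STAT site for 3 and 3, and the ISRE core for 4 and 3. These differences between lower and higher genes were not tested. The percentages count promoters, and promoters of a gene can overlap, so that the same site can count more than once. This was so for an AP-1 site of IL15RA and the ISRE core of TNFSF13B. No share per gene over all genes was computed. A match is a run of letters and not evidence of binding. The stretches before the start of 3 genes that were lower in shOGT and 2 that were higher are given 5′ to 3′ on the strand of the gene, chosen after the matches were seen, because they hold kB matches at genes that fell (NFKB1, NFKB2, CXCL10) and AP-1 matches at genes that rose (CXCL8, IL11). Capitals mark every match to the 4 motifs. NFKB1 lies at chr4:102501209-102501358, NFKB2 at chr10:102394428-102394577 (before 1 of its 3 starts in RefSeq, the one with most matches in the stretch), CXCL8 at chr4:73740419-73740568, IL11 at chr19:55370464-55370613 on the minus strand and CXCL10 at chr4:76023498-76023727 on the minus strand.
NFKB1: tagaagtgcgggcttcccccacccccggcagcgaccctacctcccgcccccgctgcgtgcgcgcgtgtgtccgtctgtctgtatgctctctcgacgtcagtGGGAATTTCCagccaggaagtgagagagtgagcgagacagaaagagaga
NFKB2: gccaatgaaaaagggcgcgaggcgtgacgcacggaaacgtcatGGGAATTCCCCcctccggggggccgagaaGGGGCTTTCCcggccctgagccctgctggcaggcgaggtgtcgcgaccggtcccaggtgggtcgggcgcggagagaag
CXCL10: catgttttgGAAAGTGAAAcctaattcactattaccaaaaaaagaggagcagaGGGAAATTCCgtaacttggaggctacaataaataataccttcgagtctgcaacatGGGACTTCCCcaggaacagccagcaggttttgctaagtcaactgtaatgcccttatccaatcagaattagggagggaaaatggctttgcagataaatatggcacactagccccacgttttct
CXCL8: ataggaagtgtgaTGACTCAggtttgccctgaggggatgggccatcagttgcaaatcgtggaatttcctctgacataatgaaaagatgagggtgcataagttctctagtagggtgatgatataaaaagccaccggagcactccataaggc
IL11: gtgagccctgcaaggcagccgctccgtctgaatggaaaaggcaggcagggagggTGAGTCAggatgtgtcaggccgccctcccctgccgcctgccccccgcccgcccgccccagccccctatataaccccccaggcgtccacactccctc
NFKB1 held 1 kB match, which began 49 bases before the start shown, 1 of its 2 starts in RefSeq. The promoter of its other start held no kB match. NFKB2 held overlapping matches on both strands from 107 bases before the start and another from 78 bases. CXCL10 held the ISRE core from 221 bases before the start and kB matches from 177 and 122 bases. The AP-1 match began 137 bases before the start of CXCL8 and 96 bases before that of IL11. The CXCL8 stretch also holds the letters tggaatttcc, which differ from the GGGAATTTCC of NFKB1 only in the first letter. They were left unmarked because the consensus used does not allow that letter. The stretches shown do not stand for all genes. Matches to kB also lay at the higher genes CCL22, IL1R2 and SOCS1, and AP-1 matches at the lower genes IRAK1 and IL15RA. CXCL6, described with the chemokines and added here after its values were seen, has the same 10 letters GGGAATTTCC as NFKB1, from 90 bases before its start, and differed from NFKB1 in direction.

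The 6 genes of the NF-kB core were all lower in shOGT. RELB, the subunit of the alternative branch, had 559, 572 and 508 normalized counts in Scramble and 57.9, 69.6 and 74.0 in shOGT. NFKB2, which encodes the precursor that pairs with RELB, had 1714, 1581 and 1611 in Scramble and 449, 408 and 437 in shOGT. These are falls to 12.3% and 26.4% of the Scramble level, with the libraries of each group close together. NFKB1, the gene for the precursor of the classical DNA-binding subunit, had 1452, 1568 and 1476 in Scramble and 676, 614 and 660.2 in shOGT, a smaller fall to 43.4%. On the log2 scale, RELB fell by 3.01 (standard error 0.15), NFKB2 fell by 1.92 (standard error 0.09) and NFKB1 fell by 1.20 (standard error 0.09). After rescaling RELB and NFKB2 were at −2.30 and −1.20, while NFKB1 was at −0.49, under a 2-fold change. RELA and REL, the other subunit genes, and NFKBIA, the main inhibitor, were not in the table.

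Among the kinases and inhibitors, NFKBIL1, a gene of the major histocompatibility region related to the IkB inhibitors, had 393, 286 and 289 normalized counts in Scramble and 84.2, 56.8 and 38.7 in shOGT. Scramble library 1 stood highest and shOGT library 6 lowest, and the log2 fold change was −2.46 (standard error 0.25). On the opposite strand, exons of ATP6V1G2 cover 11.4% of the exon bases of NFKBIL1, and the counting is not stated to use strand. IKBKB, the catalytic subunit that phosphorylates the inhibitors, went from 195 ± 13.1 to 87.9 ± 17.1 (SD, n = 3 each), and IKBKE, an IkB kinase relative that also acts in antiviral signalling, from 221 ± 13.5 to 92.0 ± 8.27 (SD, n = 3 each). Their log2 fold changes were −1.15 and −1.26 on the deposited scaling and −0.44 and −0.55 after rescaling. IKBKB was at −0.996 without shOGT library 6, which is under a 2-fold change. The largest adjusted p among the 6 genes in limma, after Benjamini-Hochberg adjustment, was 3.65e-05, over a table of genes already selected for change.

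Upstream of the kinases, 4 IRAK, TRAF and RIPK genes were in the table, and the 2 most abundant of them were also lower. The levels of those outside the table are unknown. IRAK1, the kinase that carries signals from Toll-like and interleukin-1 receptors, had 14019, 11911 and 11792 normalized counts in Scramble and 2779, 2493 and 2605 in shOGT. TRAF7, an atypical member of the TRAF family, had 4375, 3955 and 3883 in Scramble and 1021, 908 and 924 in shOGT. shOGT kept 20.9% of IRAK1 and 23.4% of TRAF7, and Scramble library 1 was the highest for both. The log2 fold changes were −2.26 and −2.10 (standard error 0.09 each), and −1.54 and −1.38 after rescaling. On the opposite strand, exons of CASKIN1 cover 21.2% of the exon bases of TRAF7. RIPK4, a receptor-interacting kinase of epithelia, moved the other way, with 448, 398 and 380.0 in Scramble and 975, 768 and 822 in shOGT. Its rise, 2.09-fold, was at a log2 fold change of 0.96 without shOGT library 4, under a 2-fold change. TRAF3IP3, which binds TRAF3, had few counts, 2.41 ± 1.41 in Scramble and 12.7 ± 4.53 in shOGT (SD, n = 3 each), and exons of C1orf74 on the opposite strand cover 29.5% of its exon bases.

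**Figure D3:**
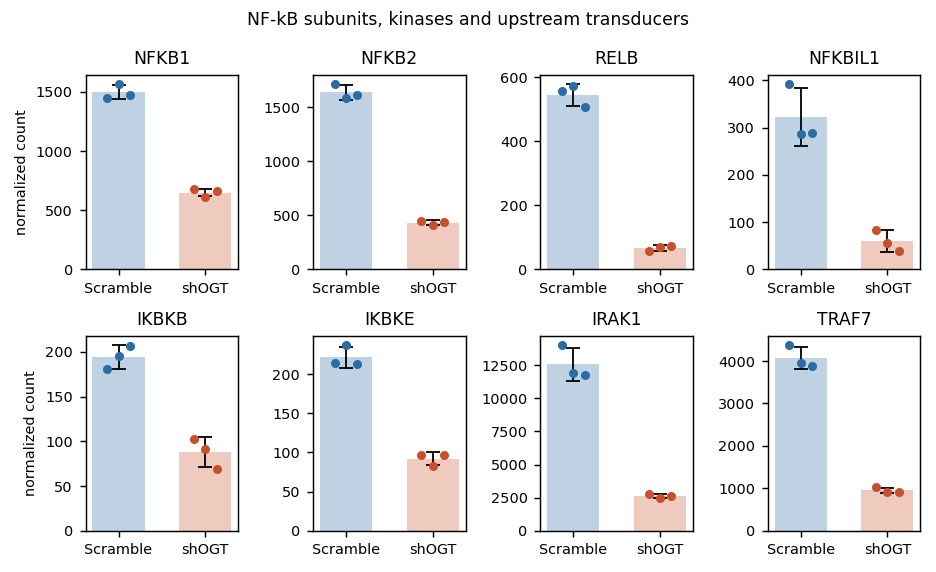
Points are the 3 libraries of each group, bars their mean and error bars the SD, in normalized counts, each panel with its own axis from 0. All 8 genes are lower in shOGT, with RELB at 12.3% and IKBKB at 45.2% of the Scramble mean as the ends of the range.

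The 4 Toll-like receptor genes split into pairs. TLR6, which pairs with TLR2 to sense bacterial lipopeptides, had 37.3, 37.8 and 46.9 normalized counts in Scramble and 224, 255 and 233 in shOGT. TLR1, another partner of TLR2, had 5.32, 4.51 and 8.28 in Scramble and 49.5, 38.6 and 58.0 in shOGT. Both rose, with log2 fold changes of 2.52 (standard error 0.19) and 2.84 (standard error 0.37). The genes overlap on chromosome 4 on the same strand, and 5.37% of the stretches of 75 bases in TLR1 also occur in TLR6, so that a part of the TLR1 count is uncertain. TLR5, the receptor for flagellin, had 34.6, 26.1 and 36.8 in Scramble and 5.26, 10.7 and 1.14 in shOGT, with a log2 fold change of −2.62 (standard error 0.53) that moved to −1.95 without shOGT library 6. TLR3, the endosomal receptor for double-stranded RNA, went from 20.5 ± 3.70 to 6.09 ± 2.32 (SD, n = 3 each), and its log2 fold change of −1.64 moved to −0.99 after rescaling. No NLRP gene was in the table.

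Of the 5 chemokine genes of the name rule, 3 were higher and 2 were lower in shOGT. The chemokine gene CX3CL1, outside the rule, was lower, as given below. CXCL8, the neutrophil attractant interleukin-8, had 3692, 5588 and 5175 normalized counts in Scramble and 11221, 14949.9 and 16634 in shOGT. All shOGT libraries were above the highest Scramble library, and the rise was 2.96-fold, or 1.57 on the log2 scale (limma, standard error 0.15, adjusted p = 2.49e-07). CXCL6, a close relative that lies 92780 bases beyond CXCL8 on chromosome 4, had 0 reads in every Scramble library and 4.21, 6.43 and 5.69 normalized counts in shOGT. It was at least 6.02-fold higher, taking 3 reads over the Scramble group as the limit that a count of 0 allows. CCL22, a ligand of CCR4, had 19.5, 60.4 and 35.9 in Scramble and 74.7, 76.0 and 87.6 in shOGT, and its log2 fold change of 1.16 was 0.75 without Scramble library 1.

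The 2 lower chemokines of the name rule are both induced by interferons. CCL5, which attracts T cells, had 75.4, 86.5 and 68.1 normalized counts in Scramble and 6.32, 7.50 and 10.2 in shOGT. CXCL10, a ligand of CXCR3, had 48.8, 50.5 and 68.1 in Scramble and 1.05, 6.43 and 18.2 in shOGT. CCL5 was low in all 3 shOGT libraries, whereas CXCL10 varied widely among them. The log2 fold changes were −3.12 (standard error 0.32) and −3.08 (standard error 0.61), and that of CXCL10 ran from −3.85 without shOGT library 6 to −2.23 without shOGT library 4. Of the stretches of 75 bases in CCL5, 9.30% also occur in the transcript AC027290.2, which makes a part of its count uncertain.

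Interleukin genes were higher with 1 exception. IL18, which is made as a precursor by epithelial cells and cut by caspase-1, had 224, 178 and 195 normalized counts in Scramble and 1182, 1296 and 1483 in shOGT. This was a 6.64-fold rise, or 2.73 on the log2 scale (limma, standard error 0.12, adjusted p = 1.33e-10), and the groups were far apart. CASP1, the gene of caspase-1 and outside the name rule, was lower, with means of 27.7 normalized counts in Scramble and 10.2 in shOGT. The cut IL18 protein was not measured. IL11, a cytokine of the IL-6 family, had 1.77, 3.60 and 21.2 in Scramble and 87.4, 81.4 and 78.5 in shOGT. Scramble library 3 stood apart from the other two, and the log2 fold change of 3.67 (standard error 0.58) was 4.54 without it and 3.04 without Scramble library 1. IL15, which supports natural killer and memory T cells, had 145, 108 and 152 in Scramble and 243, 290.3 and 300.5 in shOGT. That rise, a log2 fold change of 1.05, fell below a 2-fold change without shOGT library 6 or Scramble library 2, with 0.90 as the lowest value. IL36RN, the antagonist of the IL-36 receptor, went from 25.6 ± 8.18 to 64.6 ± 8.62 (SD, n = 3 each). IL4, the cytokine of type 2 immunity, had 0 reads in every Scramble library and 12 reads over the 3 shOGT libraries, at least 4.81-fold higher. IL4I1, a secreted amino acid oxidase, was the exception, with 135, 133 and 118 in Scramble and 45.3, 28.9 and 35.3 in shOGT. It shares exons with NUP62 over 13.1% of its exon bases on the same strand, which leaves part of its count uncertain.

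Both TNF ligands of the name rule were higher, whereas LTB, a TNF ligand outside the rule, was lower, as given below. TNFSF15, the ligand TL1A linked to inflammatory bowel disease, had 667, 765 and 803 normalized counts in Scramble and 2521, 2964 and 2624 in shOGT, a 3.63-fold rise with a log2 fold change of 1.86 (standard error 0.10). TNFSF13B, the B cell factor BAFF, had 7.10, 21.6 and 12.9 in Scramble and 25.3, 51.4 and 34.1 in shOGT. For both genes all shOGT libraries lay above the Scramble libraries, narrowly for TNFSF13B. CSF2, the gene of the growth factor GM-CSF, had 4.43, 8.11 and 3.68 in Scramble and 47.4, 41.8 and 63.7 in shOGT, with a log2 fold change of 3.06 (standard error 0.38). CSF1R, the receptor of macrophage colony-stimulating factor and a marker of macrophages, stayed near the detection limit, with 7.98, 3.60 and 6.44 in Scramble and 20.0, 18.2 and 25.0 in shOGT. LIF and LIFR were not in the table. TNFAIP2 and TNFAIP8, named for their induction by TNF, moved apart. TNFAIP2 had 8565, 7334 and 7311 in Scramble and 3619.8, 3351 and 3588 in shOGT, and TNFAIP8 had 329, 404 and 407 in Scramble and 994, 1149 and 1194 in shOGT. After rescaling, TNFAIP2 was at a log2 fold change of −0.42 in place of −1.13.

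**Figure D4:**
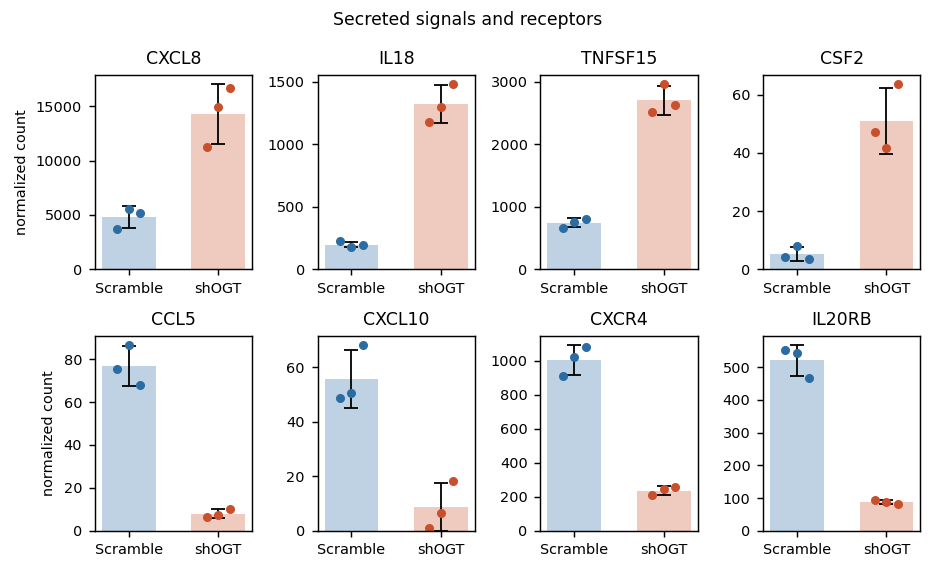
Points are the 3 libraries of each group, bars their mean and error bars the SD, in normalized counts, each panel with its own axis from 0. CXCL8, IL18, TNFSF15 and CSF2 are higher in shOGT, CCL5, CXCL10, CXCR4 and IL20RB are lower, and the SD of CXCL10 in shOGT is as large as its mean.

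Of the 3 chemokine receptors, CXCR4, the receptor of CXCL12, was by far the most abundant. It had 911, 1023 and 1083 normalized counts in Scramble and 209, 245 and 256 in shOGT, so that 23.6% was kept. CCR9, the receptor that guides lymphocytes to the gut, had 1.77, 3.60 and 9.20 in Scramble and no read in any shOGT library, at least 4.43-fold lower with 3 reads over the shOGT group as the limit. CCR3, the eotaxin receptor, had 5.32, 0.901 and 0 in Scramble and 16.8, 21.4 and 29.6 in shOGT. Its log2 fold change of 3.33 (standard error 0.59) rests on few Scramble reads, and it was 4.06 without Scramble library 1, 2.73 without Scramble library 3 and 4.76 with a pseudocount of 0.1.

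Interleukin receptor genes were higher in 4 cases and lower in 6. IL20RB, a subunit of the receptors for IL-20 and IL-24, had 553, 542 and 467 normalized counts in Scramble and 94.7, 88.9 and 80.8 in shOGT. IL22RA1, the epithelial subunit of the IL-22 receptor, had 373, 392 and 393 in Scramble and 142, 126 and 129 in shOGT. Both belong to the IL-10 receptor family, and shOGT kept 16.9% and 34.3% of them. IL15RA, IL18R1, IL27RA and IL17RD, a regulator of growth factor and IL-17 signals, were lower as well, with log2 fold changes of −1.99, −2.43, −2.13 and −1.07. IL17RD was at −0.87 without shOGT library 4, under a 2-fold change. Among the higher genes, IL7R, the receptor of IL-7, had 9.76, 4.51 and 7.36 in Scramble and 75.8, 72.8 and 95.6 in shOGT. IL1R2, a decoy receptor that binds IL-1 without signalling, had 22.2, 21.6 and 13.8 in Scramble and 196, 245 and 163 in shOGT. These were the largest rises of the role, with log2 fold changes of 3.37 (standard error 0.35) and 3.33 (standard error 0.26). IL6R had 142, 105 and 123 in Scramble and 349, 351 and 319.8 in shOGT, and the signalling receptor IL1R1 rose with a log2 fold change of 1.21. For the ligand genes IL18 and IL15, which were higher, the receptor genes IL18R1 and IL15RA were lower. The same held for TNFSF15 with TNFRSF25 and for TNFSF13B with TNFRSF13C, whose receptors are given below. These pairs were picked with the values known, and no full search for pairs was made.

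TNF receptor genes were lower in 4 of 6 cases. TNFRSF1B, a TNF receptor found mostly on leukocytes, had 27.5, 14.4 and 12.0 normalized counts in Scramble and 1.05, 1.07 and 0 in shOGT. With 60 reads over the Scramble group and 2 over the shOGT group, Scramble was 24.9-fold higher (exact 95% interval 6.61 to 211, for counting error only). TNFRSF13C, the BAFF receptor, gave a like ratio of 24.5 (exact 95% interval 6.49 to 207). TNFRSF25, a death receptor bound by the product of TNFSF15, had 145, 126 and 131 in Scramble and 43.2, 18.2 and 38.7 in shOGT, and TNFRSF14 had a log2 fold change of −1.63. After rescaling TNFRSF14 was at −0.93, and exons of TNFRSF14-AS1 on the opposite strand cover 13.4% of its exon bases. The 2 higher genes are decoys. TNFRSF10D, a decoy receptor of the death ligand TRAIL, had 148, 137 and 138 in Scramble and 710.5, 629.8 and 596 in shOGT. TNFRSF11B, the soluble decoy osteoprotegerin, had 22.2, 36.0 and 43.2 in Scramble and 134, 159 and 149 in shOGT. With IL1R2, all 3 decoy receptors of the set were thus higher, a grouping made after the values were seen.

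The 4 SOCS genes of the name rule, whose products damp cytokine receptors, were all higher. CISH, a gene of the same family outside the name rule, was lower. Its mean was 42.6 normalized counts in Scramble and 16.3 in shOGT, with a log2 fold change of −1.37. SOCS3, the inhibitor of IL-6 family signals, had 54.1, 47.8 and 45.1 normalized counts in Scramble and 211, 161 and 221 in shOGT. SOCS5 was the most abundant, with 569, 570.4 and 626 in Scramble and 1265, 1513 and 1402 in shOGT. Their log2 fold changes were 1.98 (standard error 0.20) and 1.24 (standard error 0.10), with wide gaps between the groups. SOCS1, an inhibitor of interferon and JAK signals, had 30.2, 18.0 and 24.8 in Scramble and 43.2, 51.4 and 56.9 in shOGT, and its log2 fold change of 1.04 was 0.85 without Scramble library 2. SOCS2 had 7.98, 2.70 and 6.44 in Scramble and 28.4, 13.9 and 14.8 in shOGT.

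Per 1000 exon bases, as the table gives gene length, the order of levels changed between the groups. In Scramble the highest were IRAK1 at 3143 normalized counts per 1000 bases, CXCL8 at 2119, TNFAIP2 at 1538, TRAF7 at 907 and CXCR4 at 452. In shOGT the highest were CXCL8 at 6275, TNFAIP2 at 699.9, IRAK1 at 656, IL18 at 502 and TNFSF15 at 343. IL18 stood 15th of the 54 genes in Scramble and 4th in shOGT, while RELB stood 10th in Scramble and 29th in shOGT. At the low end, 3 genes had no read in a whole group (CXCL6 and IL4 in Scramble, CCR9 in shOGT).

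**Figure D5:**
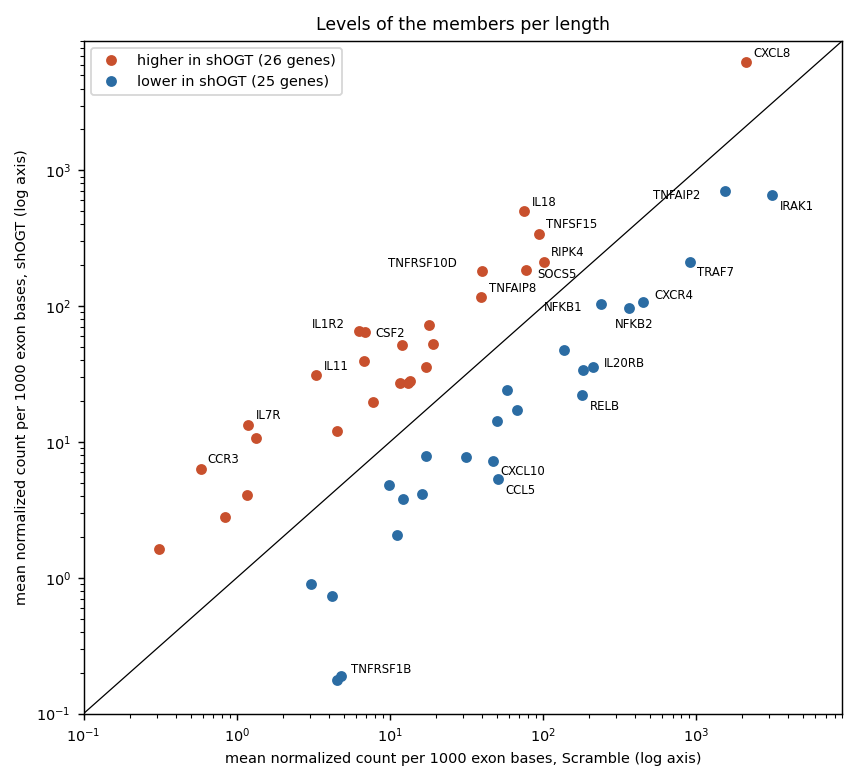
Mean normalized counts per 1000 exon bases in Scramble (horizontal) and shOGT (vertical), both on log axes, for the 51 genes with a mean above 0 in both groups, with a line of equal levels. CXCL8 is at the top right, the abundant transducers IRAK1 and TRAF7 lie below the line, and IL18, TNFSF15, CSF2 and IL11 lie above it.

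Some of the genes are neighbours in the genome (GRCh38). On chromosome 2, IL1R2 (101991844 to 102028544), IL1R1 (102064544 to 102179874) and IL18R1 (102311529 to 102398775) form 1 cluster of interleukin-1 family receptors, in which the first 2 were higher and IL18R1 was lower. On chromosome 3, CCR9 (45886504 to 45903177) was lower and CCR3 (46163604 to 46266706) was higher. On chromosome 4, TLR1 and TLR6 were both higher, as were CXCL8 (73740506 to 73743716) and CXCL6 (73836497 to 73849064). Neighbours within 500000 bases thus shared a direction in 3 of 5 adjacent pairs.

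Lists written from general knowledge gave the wider pathway. Of 36 genes of the name rule known to be induced by NF-kB, 9 were in the table, 4 higher and 5 lower, with a median log2 fold change of −1.13, beside −1.11 for the protein-coding genes of the table, 42.6% of which were higher, and 1.05 for all genes. The medians of the other lists, all of protein-coding genes, stand beside the same values. The higher ones were CXCL8, CXCL6, TNFSF15 and CSF2, and the lower ones RELB, NFKB2, NFKB1, TNFAIP2 and CCL5. The list was not checked for completeness, and its split is no measure of NF-kB activity. It leaves out CXCL10, which was lower, and CCL22, which was higher, although both have a kB match. Of 15 interferon-induced genes on a list of the same kind, 7 were in the table, 3 higher and 4 lower, with a median of −1.64. Without Scramble library 2 or shOGT library 6, 1 of the 3 higher ones was called. Of 10 genes on a list written for STAT3, among them CISH, which the name rule leaves out, 6 were in the table, 4 higher and 2 lower, with a median of 1.25. The list was not checked for genes that other STAT proteins induce, and its split is no measure of STAT3 activity. A list outside the name rule was written for adaptors, ubiquitin ligases and kinases of NF-kB signalling, and its genes are called adaptors for short. Of its 51 genes, 10 were in the table, 1 higher and 9 lower, with a median of −1.27. No kinase gene was among the 10. Beside adaptors and ubiquitin ligases they held CASP1, GSDMD, the deubiquitinase gene CYLD and the protease gene MALT1. CASP1 and GSDMD had log2 fold changes of −1.33 and −1.21. PYCARD, the adaptor of inflammasomes, fell from a mean of 160.2 ± 34.0 in Scramble to 22.0 ± 6.19 in shOGT (SD, n = 3 each), and the ubiquitin ligase gene PELI3 and the deubiquitinase gene CYLD had log2 fold changes of −2.40 and −1.54. MALT1, a protease of lymphocyte receptor signalling, was the higher one, with a log2 fold change of 1.09, and was not called without Scramble library 1. Of 36 further NF-kB target genes, 12 were in the table, 9 higher and 3 lower, with a median of 1.39. EDN1, the gene of endothelin-1, rose from 17.7 ± 5.47 to 241 ± 20.5 (SD, n = 3 each), and F3, the gene of tissue factor, and SAA2, an acute-phase gene, had log2 fold changes of 2.53 and 2.13. The 3 lower were the TNF ligand gene LTB, the chemokine gene CX3CL1 and BTG2, with −2.23, −1.23 and −1.06. Mean normalized counts of CX3CL1 fell from 656 in Scramble to 279 in shOGT, and those of LTB from 13.5 to 2.14. Of 50 JAK-STAT and other cytokine signalling genes, 10 were in the table, 4 higher and 6 lower, with a median of −1.36. Here the kinase genes JAK3 and TYK2 had log2 fold changes of −2.49 and −1.97, and CNTF, a cytokine of the IL-6 family, of 2.08. After rescaling, the lower genes past a 2-fold change numbered 2 of the 9 adaptors, 1 of the 3 targets and 3 of the 6 cytokine signalling genes.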

How the data were processed

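RNA-seq of 6 HT-29 libraries was analysed. Per the labels, oligo(dT)-selected RNA was made into dUTP libraries with unique molecular identifiers. The study's methods name a different preparation, the Agilent SureSelect strand-specific kit, and which was used was not settled here. The submitters' processing notes name cutadapt 1.9, HISAT2 2.0.4, UMI-tools, StringTie 1.3.4d, DESeq2 and edgeR, and mm8, a mouse build, but the positions of all 5681 genes match GENCODE 29 (human). Whether counting used strand is not given in the sources used here.

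The deposited normalized counts (signal) are reads that the authors divided by 1 size factor per library (1.09 to 1.13 in Scramble, 0.879 to 0.950 in shOGT). The deposited log2 fold change, p-value and adjusted p-value columns hold the authors' comparison and were not used. Whole reads were recovered for 100% of values (tolerance 0.02), giving 4145921 to 4504303 reads per Scramble library and 3302558 to 3471647 per shOGT library on the genes of the table. The share of genes at 0 was 7.27% to 7.90% in Scramble and 1.21% to 1.74% in shOGT.

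Genes at or above 1 normalized count in at least 3 libraries were tested with limma 3.58.1 (R 4.3.3, with a mean-variance trend) on log2(normalized count + 1), over all genes, with Benjamini-Hochberg adjustment. A fold change on this scale understates the change of low genes. An exact permutation test of 3 against 3 libraries cannot go below p = 0.1. Members and lists were chosen with earlier results of these data known. Values in every library are given for up to 3 members per role with the highest mean and up to 3 with the largest change among those with a mean of at least 10, and list genes by the same rule for change. The other members printed per library, CXCL6 and TNFRSF1B among them, were chosen after their values were seen. So were MALT1, CASP1, GSDMD, CISH, LTB, CX3CL1 and BTG2. Alternatives were a rescaling, a pseudocount of 0.1, no filter, a mean of at least 5, leaving out each library, and count tests of the recovered reads with DESeq2 1.42.0 or edgeR 4.0.16. The fitting steps were tested on simulated data. Promoters came from RefSeq (GRCh38.p14), and the 12 genes without one are CCL5, IKBKB, IL15, IL18, RELB, RIPK4, SOCS2, SOCS5, TLR1, TNFRSF10D, TNFRSF11B and TNFRSF13C.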

Additional observations from a re-analysis of the deposited data

How the results depend on the processing

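No direction of the 54 genes turned under any alternative run, and both count tests (edgeR, DESeq2), a pseudocount of 0.1 and no filter on low values each called all 54. With a mean of at least 5 normalized counts, 51 of 51 remaining genes were called and the lower chemokine receptors numbered 1 in place of 2, because CCR9 was not tested. Rescaling each library within the table called 46. It gave 1090 lower genes over the whole table and medians of 1.76 for all genes and 1.75 for the 54, lower counts of 0 for the TNF-induced genes, 1 for the Toll-like receptors and 3 for the NF-kB core, 3 lower genes with a median of −0.42 for the NF-kB induced list, a median of −0.99 for the interferon list, 0 lower genes with a median of 1.96 for the STAT3 list, 2 with −0.57 for the adaptors, 1 with 2.11 for the further NF-kB targets and 3 with −0.66 for the JAK-STAT genes. Leaving out 1 library at a time called 51 to 54 of the 54 genes. The count of higher adaptors then ran from 0 to 1, that of higher interferon-induced genes from 1 to 3 (IL15 and SOCS1 were lost without Scramble library 2 or shOGT library 6), and that of higher IRAK, TRAF and RIPK genes from 1 to 2. No paired analysis was possible because the groups share no replicate numbers. Genes under about 10 normalized counts rest on few reads in each library.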
